A study of Mus musculus with 29 samples.

Results

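Cytotoxic lymphocytes are the CD8-positive T cells and natural killer cells that kill other cells by releasing granules. Of 10 genes chosen by name for this cell function, 9 were among the 13982 genes of the expression table, and Ifng, which encodes interferon-gamma, was not analysed here. The libraries came from NZB/W mice, the F1 cross of the New Zealand black and white strains, which develops lupus nephritis without a transgene or a treatment. Poly(A) RNA was sequenced on an Ion Torrent PGM in 4 kidney, 3 TLS, and 3 lymph node libraries of proteinuric mice, 3 lymph node libraries of mice with anti-dsDNA antibodies, and 1 lymph node library of a young mouse. TLS are tertiary lymphoid structures, lymphoid aggregates that were dissected by hand from the kidneys. The proteinuric mice were labeled H6, H20, H117, and H115 and were 39, 36, 32, and 25 weeks old. Mouse H117 had no TLS library, and mouse H115 had no lymph node library. The antibody-positive mice D10, D11, and L25 were 28, 29, and 18 weeks old, and the young mouse C45 was 4 weeks old. Lymph nodes of the antibody-positive mice were extracted with the miRNeasy kit and tissues of the proteinuric mice with TRIzol, so that extraction and disease stage cannot be told apart between them.

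Cytotoxic T cells recognize peptides on major histocompatibility complex class I with the help of CD8, a pair of an alpha chain (Cd8a) and a beta chain (Cd8b1). Their granules hold perforin (Prf1), which forms pores, and granzymes (Gzma, Gzmb, and Gzmk), serine proteases that enter the target cell. Nkg7 is a protein of the granule membrane, Klrd1 (CD94) is a receptor chain of natural killer cells and activated CD8 T cells, and Eomes is a transcription factor of the T-box family in both cell types. In mice, a subset of dendritic cells also carries Cd8a but not Cd8b1.

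The libraries held between 343825 and 443379 reads, and a table value is the read count with 1 added, over the library's size factor. Ribosomal RNA was abundant in 3 libraries, with shares of 55.6% (kidney H117), 31.8% (lymph node H6), and 21.3% (TLS H115), and made up at most 5.33% elsewhere. The 10 kidney markers had between 6659 and 15675 reads in the kidney libraries, between 1957 and 6880 in TLS, and at most 2 in any lymph node of these mice. The 17 T-cell markers had between 0 and 47 reads in kidney, between 199 and 575 in TLS, and between 657 and 1155 in lymph node of proteinuric mice. The TLS libraries therefore held RNA of both kidney and lymphoid markers. In bulk tissue, fewer cells of a type and less RNA per cell cannot be told apart.

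The genes are spread over 6 chromosomes of the GRCm38 build, with 2 close pairs. Cd8b1 (ENSMUSG00000053044, chr6:71322788-71337494) lay 35.9 kb before Cd8a (ENSMUSG00000053977, chr6:71373427-71379173) on the plus strand. Gzma (ENSMUSG00000023132, chr13:113093825-113100981) and Gzmk (ENSMUSG00000042385, chr13:113171608-113225908) were 70.6 kb apart on the minus strand. The other genes were Klrd1 (ENSMUSG00000030165, chr6:129591782-129598775), Nkg7 (ENSMUSG00000004612, chr7:43437073-43438249), Eomes (ENSMUSG00000032446, chr9:118478212-118486132), Prf1 (ENSMUSG00000037202, chr10:61297833-61304680), and Gzmb (ENSMUSG00000015437, chr14:56258838-56262260). Gzmb was on the minus strand and the others on the plus strand.

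RefSeq promoter sequences (build GRCm38.p6, 250 bases before to 50 bases after the start) were matched by symbol for 7 of the 9 genes. The promoters of Cd8a, Gzma, Nkg7, and Prf1 are shown because the comparisons between tissues turned on these genes. Capitals mark 3 short motifs, searched on both strands. They are the T-box core GGTGTGA, bound by the family of Eomes, the Runx core TGTGGT, and the ETS core AGGAAG, and no match overlapped another.
Cd8a (chr6:71373177-71373476, plus strand): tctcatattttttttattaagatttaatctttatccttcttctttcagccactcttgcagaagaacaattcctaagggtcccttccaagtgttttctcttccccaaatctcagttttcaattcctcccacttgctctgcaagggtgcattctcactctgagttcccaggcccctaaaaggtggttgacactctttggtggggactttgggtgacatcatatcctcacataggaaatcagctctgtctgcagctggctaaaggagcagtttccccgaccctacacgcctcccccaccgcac
Gzma (chr13:113100932-113101231, minus strand): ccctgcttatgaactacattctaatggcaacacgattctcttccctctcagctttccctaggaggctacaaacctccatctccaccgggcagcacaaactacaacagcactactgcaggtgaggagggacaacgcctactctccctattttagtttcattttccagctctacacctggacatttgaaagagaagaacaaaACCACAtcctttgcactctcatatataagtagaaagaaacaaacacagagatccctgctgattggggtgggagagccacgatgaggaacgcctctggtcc
Nkg7 (chr7:43436888-43437187, plus strand): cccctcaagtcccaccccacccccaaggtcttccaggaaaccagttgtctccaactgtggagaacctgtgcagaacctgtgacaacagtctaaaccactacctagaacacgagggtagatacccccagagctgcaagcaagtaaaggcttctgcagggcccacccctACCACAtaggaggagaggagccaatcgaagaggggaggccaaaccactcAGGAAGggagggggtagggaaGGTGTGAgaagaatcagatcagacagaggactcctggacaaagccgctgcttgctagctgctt
Prf1 (chr10:61297586-61297885, plus strand): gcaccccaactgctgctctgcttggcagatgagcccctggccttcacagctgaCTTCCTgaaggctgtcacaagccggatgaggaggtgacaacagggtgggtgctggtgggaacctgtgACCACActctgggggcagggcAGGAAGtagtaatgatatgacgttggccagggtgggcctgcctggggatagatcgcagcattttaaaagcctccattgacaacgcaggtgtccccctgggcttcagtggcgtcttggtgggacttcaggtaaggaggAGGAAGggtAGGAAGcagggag

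The Cd8a window held none of the 3 motifs. The Gzma window held 1 Runx core, 50 bases before the start. All 3 motifs were present in the Nkg7 window, with the T-box core 13 bases before the start. The Prf1 window held 1 Runx core and 4 ETS cores. Over the 7 promoters, the T-box core was found in 2 (Nkg7 and Gzmk), the Runx core in 4 (Gzma, Gzmb, Nkg7, and Prf1), and the ETS core in 2 (Nkg7 and Prf1). Of all 32851 promoters of the same length, 3.98%, 16.8%, and 35.4% held these motifs, respectively. A match describes letters in this window and not a site that a factor binds.

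The co-receptor genes were nearly absent from kidney, low in TLS, and higher in lymph node. Cd8a had 0 reads in each of the 4 kidney libraries. In TLS of mice H115, H20, and H6 it had 2, 6, and 8 reads, and in lymph node of mice H117, H20, and H6 it had 24, 36, and 16 reads. The 3 tissues did not overlap in this gene. Overlap is given here and below as a description, as the share of all genes without overlap was not determined. The mean table value of Cd8a was 5.47 ± 2.18 (SD, n = 3) in TLS and 26.6 ± 7.61 (SD, n = 3) in lymph node.

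Cd8b1 followed the same order of tissues. It had 1 read in kidney of mouse H6 and 0 in the other kidney libraries. TLS of mice H115, H20, and H6 had 3, 9, and 17 reads, and lymph node of mice H117, H20, and H6 had 28, 33, and 22 reads. Its mean value was 9.16 ± 5.57 (SD, n = 3) in TLS and 29.7 ± 5.40 (SD, n = 3) in lymph node, and no TLS library reached a lymph node library. Among the TLS libraries, mouse H6 had the most and mouse H115 the fewest reads of both co-receptor genes.

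Gzma was the granzyme with the most reads. It had 2 reads in kidney of mouse H20 and 0 in the other kidney libraries. TLS of mice H115, H20, and H6 had 3, 2, and 9 reads, and lymph node of mice H117, H20, and H6 had 25, 26, and 21 reads. The mean value was 5.07 ± 3.12 (SD, n = 3) in TLS and 26.2 ± 5.44 (SD, n = 3) in lymph node, with no overlap between them. Nkg7 had 2 reads in kidney of mouse H20, 1 in kidney of mouse H6, and 0 in the others. It had 2, 4, and 16 reads in TLS of mice H115, H20, and H6, and 15, 17, and 15 reads in lymph node of mice H117, H20, and H6. After division by the size factor, TLS of mouse H6 (13.6) lay above lymph node of mouse H117 (12.1), so TLS and lymph node overlapped in Nkg7 and not in Gzma.

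The remaining genes had few reads in every library. Prf1 had 0 reads in kidney, 1 read in TLS (mouse H6), and 5, 6, and 1 reads in lymph node of mice H117, H20, and H6. Klrd1 had 0 reads in kidney, 1 read in each TLS library, and 3, 2, and 7 reads in lymph node of these mice. Both genes were thus low in TLS, and their lymph node libraries lay above TLS once divided by the size factor. For Prf1 in mouse H6 this rests on the size factor alone, as both tissues had 1 read (1.45 in lymph node and 0.848 in TLS after division). Gzmk had 0, 1, and 7 reads in TLS of mice H115, H20, and H6, and 3, 5, and 0 reads in lymph node of mice H117, H20, and H6. Gzmb had 2 reads in TLS, both in mouse H6, and 3, 4, and 0 reads in lymph node of mice H117, H20, and H6. Eomes had 2 reads over the TLS libraries and 5 over the lymph node libraries. TLS and lymph node overlapped in Gzmk, Gzmb, and Eomes, and the highest TLS library of Gzmk was mouse H6.

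**Figure D1:**
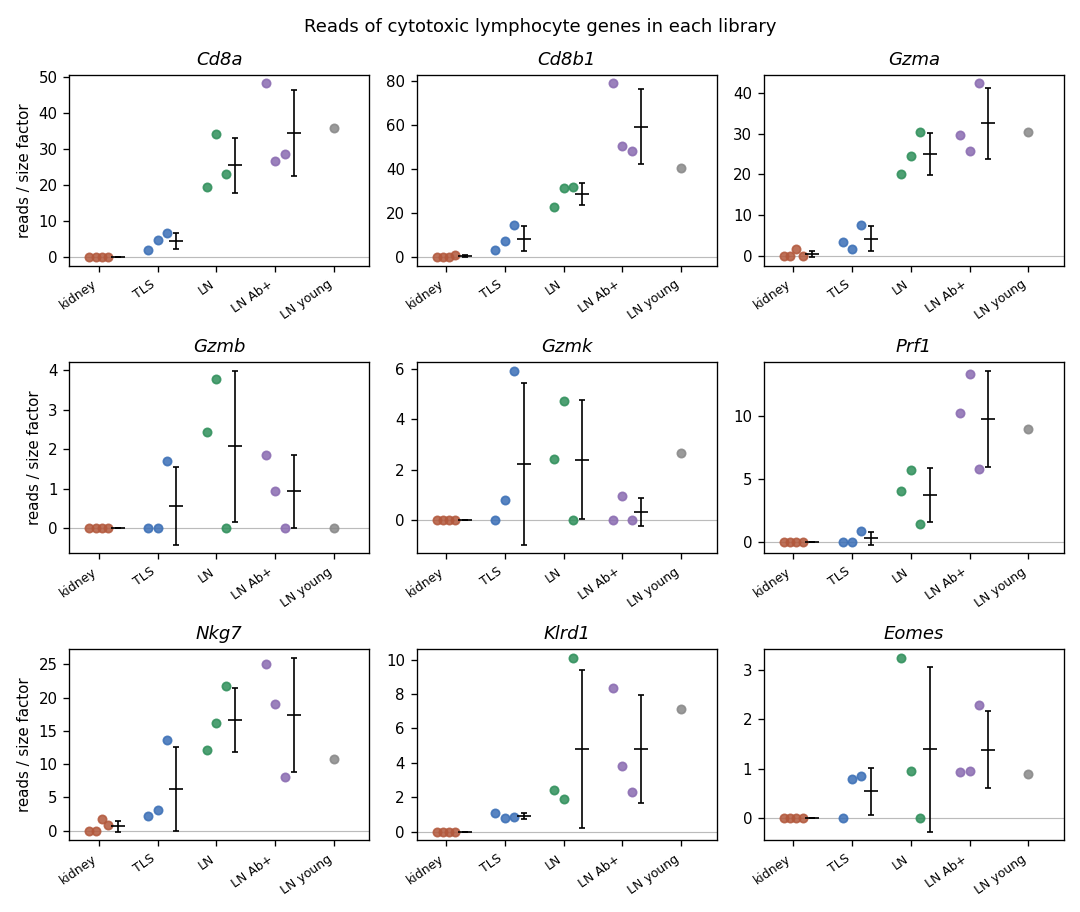
Reads of the 9 cytotoxic lymphocyte genes divided by the size factor of the library (y axis, linear, own scale in each panel) in kidney, TLS, and lymph node (LN) of proteinuric mice, lymph node of antibody-positive mice (LN Ab+), and the young lymph node. Each point is a library, and the black bar is the mean ± SD for groups of more than 1 library. In Cd8a, Cd8b1, and Gzma all TLS points lie below all lymph node points, whereas in Nkg7 the highest TLS point (mouse H6) lies among those of lymph node and in Gzmk it lies above them.

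Levels were compared between genes as reads divided by the size factor and by the length of all annotated exons in kb. In lymph node of proteinuric mice, Gzma had the highest level per kb (24.9 ± 5.08, SD, n = 3), followed by Cd8b1 (19.3 ± 3.48) and Nkg7 (18.2 ± 5.28), and mean ± SD overlapped between these neighbors. Cd8a (7.03 ± 2.10) was set apart from Nkg7 and was followed by Klrd1 (3.76 ± 3.60), which it overlapped. Gzmk (1.72 ± 1.71), Gzmb (1.44 ± 1.34), and Prf1 (1.44 ± 0.826) overlapped each other, and Eomes (0.336 ± 0.401), which overlapped Prf1, was lowest. In TLS the order was Nkg7 (6.89 ± 6.91), Cd8b1 (5.57 ± 3.82), Gzma (4.13 ± 3.11), Gzmk (1.61 ± 2.32), Cd8a (1.25 ± 0.634), Klrd1 (0.709 ± 0.126), Gzmb (0.394 ± 0.682), Eomes (0.131 ± 0.114), and Prf1 (0.109 ± 0.189). Mean ± SD overlapped between all neighbors in the TLS order. The highest mean was thus that of Gzma in lymph node and of Nkg7 in TLS, and the order in TLS rests on few reads.

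The 3 tissues of the proteinuric mice were compared in one fit with limma, on log2(value + 1), to see how the genes differ between kidney, TLS, and lymph node. The 3 comparisons share libraries and are not independent of each other. Genes entered the fit if their value averaged 5 or more over the 10 libraries, and those with an adjusted p (Benjamini-Hochberg, over all 7382 genes tested) below 0.05 are called DE. Cd8a, Cd8b1, Gzma, and Nkg7 passed this filter, and Gzmb, Gzmk, Prf1, Klrd1, and Eomes did not. Because the 4 passed through their lymph node values, counts among them are a description.

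In TLS, both CD8 chains were up-regulated over kidney. Of the 4 genes tested, 2 were higher in TLS than in kidney, where 8.62% of all genes tested were called higher in TLS. Cd8b1 differed by 1.96 (SE 0.37, adjusted p = 0.00389, limma) and Cd8a by 1.54 (SE 0.34, adjusted p = 0.00945, limma) on the log2 scale. Nkg7 (1.31, SE 0.44, adjusted p = 0.0638, limma) and Gzma (1.14, SE 0.39, adjusted p = 0.0678, limma) did not pass the threshold. The log2(value + 1) scale understates differences of genes with so few reads. Against a floor of 3 reads over the 4 kidney libraries together, Cd8a was at least 5.93-fold higher in TLS, and Gzmk, with 8 reads in TLS, at least 2.96-fold higher. With 1 read in kidney, the ratio of Cd8b1 was 32.2 (95% exact counting interval 5.34 to 1320). The ratios of Gzma and Nkg7 were 7.78 (1.79 to 70.5) and 8.15 (2.45 to 42.5). These intervals and floors cover counting error only and not the spread between mice. Prf1, Klrd1, Gzmb, and Eomes were at or under the floor in both tissues. TLS of mouse H6 held 7 of the 8 Gzmk reads of TLS, and without it Gzmk was under the floor in both tissues. The ratios were then 20.5 (3.04 to 877) for Cd8b1, 4.27 (0.700 to 44.9) for Gzma, and 3.42 (0.730 to 21.1) for Nkg7. Without kidney of mouse H20 the ratio of Nkg7 was 16.7 and Gzma was at least 3.54-fold higher, and without kidney of mouse H6 Cd8b1 was at least 7.49-fold higher.

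The calls in kidney versus TLS depended on single TLS libraries and on the filter. With genes of a mean of 10 or more, Cd8a was at the same difference and was not called (1.54, SE 0.55, adjusted p = 0.0736, limma). When TLS of mouse H6 was left out, Cd8a fell below the threshold (1.30, adjusted p = 0.0587, limma). Without TLS of mouse H115, Nkg7 passed it (1.66, adjusted p = 0.0243, limma), and without TLS of mouse H20, Gzma passed it (1.5, adjusted p = 0.0320, limma). Nkg7 was also called by count tests, with edgeR (quasi-likelihood, 2.97, adjusted p = 0.0415) and with DESeq2 (3.04, adjusted p = 0.0474). Cd8b1 was called in every alternative that was run.

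Lymph node exceeded TLS in the CD8 chains and in Gzma. Of the 4 genes tested, 3 were higher in lymph node than in TLS, compared with 1.69% of all genes tested. Gzma differed by 2.27 (SE 0.41, adjusted p = 0.00311, limma), Cd8a by 2.12 (SE 0.37, adjusted p = 0.00219, limma), and Cd8b1 by 1.72 (SE 0.40, adjusted p = 0.0146, limma). Nkg7 differed by 1.41 and was not called (SE 0.47, adjusted p = 0.0784, limma). In reads, the ratio of lymph node over TLS was 5.81 (95% exact counting interval 3.25 to 11.2) for Gzma, 5.37 (3.10 to 9.86) for Cd8a, 3.23 (2.10 to 5.12) for Cd8b1, and 2.41 (1.43 to 4.21) for Nkg7. The same ratio was 1.13 (0.370 to 3.45) for Gzmk, the granzyme whose gene neighbors Gzma, but it was 5.88 (0.788 to 261) without TLS of mouse H6 and 0.656 (0.112 to 2.73) without lymph node of mouse H20. Without TLS of mouse H6 the ratio was also larger for Gzma (10.6), Nkg7 (5.75), and Cd8b1 (5.08). Without a filter on low values, 1.57% of 13467 genes were higher in lymph node than in TLS, and Prf1 was among them (1.37, SE 0.32, adjusted p = 0.0162, limma). The read ratio of Prf1 was 13.6 (2.01 to 580), from 12 and 1 reads, and that of Klrd1 was 4.52 (1.22 to 25.0), from 12 and 3 reads. Prf1 was at least 2.94-fold higher without TLS of mouse H6 and had a ratio of 8.44 without TLS of mouse H20, and the ratio of Klrd1 was 2.45 (0.477 to 15.8) without lymph node of mouse H6.

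When the 3 libraries rich in ribosomal RNA (kidney H117, lymph node H6, and TLS H115) were left out, 1 gene, Cd8a, was still called in lymph node versus TLS. Gzma was then at 2.10 (adjusted p = 0.0799, limma) and Cd8b1 at 1.25 (adjusted p = 0.139, limma), and 0.339% of all genes tested were called higher in lymph node. Cd8b1 also fell below the threshold without lymph node H20 (1.66, adjusted p = 0.0599, limma), lymph node H6 (1.64, adjusted p = 0.0585, limma), or TLS H115 (1.34, adjusted p = 0.0622, limma), and under DESeq2 (1.78, adjusted p = 0.0587). Nkg7 passed the threshold without TLS of mouse H6 (1.99, adjusted p = 0.00636, limma) and with all 7 lymph node libraries as one group (1.32, adjusted p = 0.0233, limma). TLS of mouse H6 had 16 of the 22 Nkg7 reads of TLS, and also the most T-cell marker reads (575) of the TLS libraries.

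Lymph node and kidney differed most. All 4 genes that passed the filter were called higher in lymph node than in kidney, where 20.8% of all genes tested were. Cd8b1 differed by 3.69 (SE 0.37, adjusted p = 7.61e-06, limma), Cd8a by 3.66 (SE 0.34, adjusted p = 4.21e-06, limma), Gzma by 3.42 (SE 0.39, adjusted p = 1.81e-05, limma), and Nkg7 by 2.72 (SE 0.44, adjusted p = 0.000272, limma). Cd8a was at least 31.8-fold higher against the floor. Without a filter, 15.4% of genes were higher in lymph node than in kidney, among them Prf1 (1.39, SE 0.29, adjusted p = 0.00229, limma) and Klrd1 (1.47, SE 0.38, adjusted p = 0.00868, limma). Both had 12 reads over the lymph node libraries and 0 in kidney, at least 5.02-fold higher, and without lymph node of mouse H6 Klrd1 was at least 2.72-fold higher. Gzmk, Gzmb, and Eomes had 8, 7, and 5 reads over the lymph node libraries and 0 in kidney, and they were not called.

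**Figure D2:**
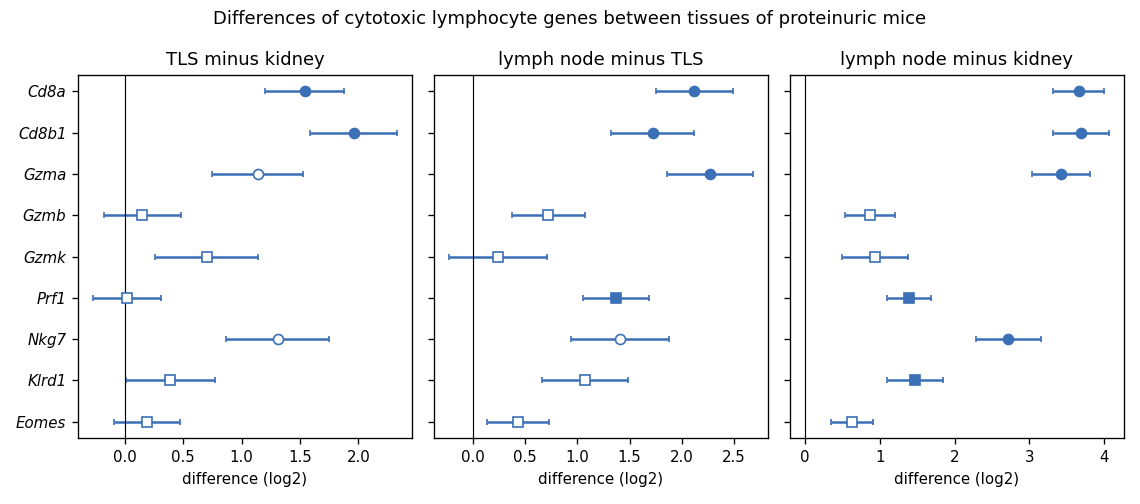
Difference between tissues of proteinuric mice on the log2(value + 1) scale (x axis, own range in each panel) with its standard error (bars) for each gene. Circles are genes that passed the filter on low values, squares are genes tested without a filter, and filled symbols were called DE with limma. In TLS minus kidney the 2 CD8 genes are filled, in lymph node minus TLS Cd8a, Cd8b1, Gzma, and Prf1 are filled, and in lymph node minus kidney Gzmb, Gzmk, and Eomes are the ones not filled.

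Most T cells carry either CD8 or CD4, so the share of Cd8a among the reads of Cd8a and Cd4 was compared. It is a share of reads and not of T cells, as some dendritic cells also carry Cd8a. In TLS it was 16.7% in mouse H115 (95% Wilson interval 4.70% to 44.8%, 2 of 12 reads), 33.3% in mouse H20 (16.3% to 56.3%, 6 of 18 reads), and 22.9% in mouse H6 (12.1% to 39.0%, 8 of 35 reads). In lymph node it was 33.8% in mouse H117 (23.9% to 45.4%, 24 of 71 reads), 50.7% in mouse H20 (39.3% to 62.0%, 36 of 71 reads), and 61.5% in mouse H6 (42.5% to 77.6%, 16 of 26 reads). The share was lower in TLS than in lymph node in both mice with the 2 tissues. The mean was 24.3% ± 8.39 (SD, n = 3) in TLS and 48.7% ± 14 (SD, n = 3) in lymph node, with a two-sided exact permutation p = 0.1, the smallest that 3 against 3 libraries can give. The permutation took the libraries as independent, although mice H20 and H6 gave both tissues, so it cannot decide whether the shares differ. The highest TLS share (33.3%) and the lowest lymph node share (33.8%) were nearly equal. The lowest TLS share (mouse H115) and the highest lymph node share (mouse H6) came from libraries rich in ribosomal RNA. Without these libraries, the shares were 33.3% and 22.9% in TLS and 33.8% and 50.7% in lymph node.

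With Cd8b1 in place of Cd8a, the share was 34.9% ± 10.4 (SD, n = 3) in TLS and 51.5% ± 16 (SD, n = 3) in lymph node, the ranges overlapped, and the exact permutation p was 0.3. Cd4 had 10, 12, and 27 reads in TLS of mice H115, H20, and H6, and 47, 35, and 10 in lymph node of mice H117, H20, and H6. Cd4 did not pass the threshold in lymph node versus TLS (0.91, SE 0.42, adjusted p = 0.230, limma), whereas Cd3e, a chain of the T-cell receptor complex, was higher in lymph node (1.76, SE 0.42, adjusted p = 0.0166, limma). In kidney, Cd8a and Cd4 together had 2 reads, too few for a share.

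**Figure D3:**
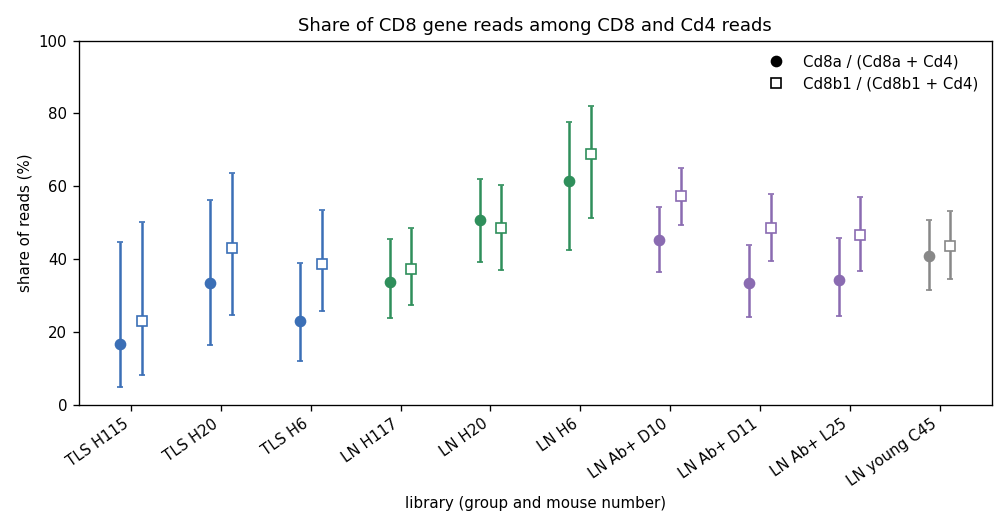
Share of Cd8a among Cd8a and Cd4 reads (filled circles) and of Cd8b1 among Cd8b1 and Cd4 reads (open squares) in each TLS and lymph node (LN) library, in percent, with 95% Wilson intervals as bars. The filled TLS circles lie between 16.7% and 33.3% and those of lymph node of proteinuric mice between 33.8% and 61.5%, and the bars of most libraries overlap.

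The genes were also set against the amount of T-cell RNA. Per 100 reads of the 17 T-cell markers, Cd8a and Cd8b1 together had 2.51, 4.30, and 4.35 reads in TLS of mice H115, H20, and H6, and 4.50, 7.35, and 5.78 in lymph node of mice H117, H20, and H6. The 7 granule, receptor, and transcription factor genes together had 3.02, 2.58, and 6.43 reads per 100 in TLS of mice H115, H20, and H6, and 5.02, 6.50, and 6.70 in lymph node of mice H117, H20, and H6. TLS of mouse H6 was thus within the lymph node range for the 7 genes and just under it for the CD8 genes. These are descriptions of 3 libraries a tissue, with no test.

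Other genes of cytotoxic lymphocytes were read from lists chosen by function. Genes of these and the later lists can also pass the filter through their lymph node or TLS values, so counts among them are a description. Of all genes tested, 8.62% were called higher in TLS than in kidney. The shares were 1.69% for lymph node over TLS and 20.8% for lymph node over kidney. Of 39 further receptors, effectors, and transcription factors, 22 were in the expression table, and 10 of those passed the filter. Compared with kidney, 5 of the 10 were higher in TLS (median difference of the 10 genes 1.46, of all genes -0.01). The leading genes were Cxcr3, a chemokine receptor of activated T cells (3.28, SE 0.35, adjusted p = 0.000127, limma), Cst7, a cystatin that acts on granule proteases (2.11, SE 0.40), and Slamf7, a receptor of natural killer cells and other lymphocytes (2.04, SE 0.34). In lymph node versus TLS, 2 of the 10 were higher in lymph node (median 0.66, of all genes 0.04), the chemokine Xcl1 (2.20, SE 0.48, adjusted p = 0.00990, limma) and Ctsw, a cathepsin of cytotoxic cells (1.58, SE 0.38, adjusted p = 0.0183, limma). Xcl1 was called by edgeR and DESeq2 as well, and Ctsw by neither. In lymph node versus kidney, 7 were higher and 1 lower (median 2.65, of all genes 0.05), led by Cxcr3 (3.73), the chemokine Ccl5 (3.18), and Ctsw (2.90). The list held receptors of natural killer cells that were not tested, and Ncr1 and Klrk1, named after their values were seen, had 0 reads in kidney and TLS. In lymph node of mice H117, H20, and H6, Ncr1 had 5, 0, and 2 reads and Klrk1 3, 3, and 1 reads, for each gene 7 reads in all. Among other receptors of the list, Klra4 and Cd226 also had 0 reads in TLS, whereas Crtam had 4 and Slamf7 24. At 7 reads in lymph node, 0 reads in TLS do not show that a transcript was absent.

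The granule exocytosis machinery was mostly not called. Of 10 genes tested, 1 was higher in TLS than in kidney (median 0.14), the granule proteoglycan Srgn (2.42, SE 0.42, adjusted p = 0.00221, limma). The edgeR test called Srgn and Unc13d. DESeq2 called these and Lamp1, which was lower in TLS (-0.99, SE 0.33, with limma). Between lymph node and TLS 0 differed (limma, median 0.17), with 1 at an unadjusted p under 0.05 and 0 called by edgeR or DESeq2. In lymph node versus kidney, 4 were higher and 1 lower (median 0.20), led by Srgn (3.20), Unc13d, which primes granules for release (2.60), and Ctsc, the protease that activates granzymes (1.78). These genes act in many cell types, and of the 12 in the table, 10 had reads in kidney.

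TLS exceeded kidney in the cytokine receptors that were tested and in some genes linked to interferon-gamma. Of 18 cytokine and receptor genes listed, 12 were in the expression table and 4 passed the filter. Of those that did not pass, Il15 had 10 reads in kidney, 3 in TLS, and 0 in lymph node, and Il18 had 1, 10, and 26. The 4 genes tested were all higher in TLS than in kidney (median 2.59), led by the receptor chains Il2rg (3.14, SE 0.53), Il21r (2.84, SE 0.33), and Il2rb (2.34, SE 0.44). In lymph node versus TLS, 1 of them, Il21r, was higher (1.61, SE 0.36, adjusted p = 0.0115, limma; median 0.85), and it was called by DESeq2 and not by edgeR, which called 0 of the 4. All 4 were higher in lymph node than in kidney (median 3.59). Of 9 genes of the interferon-gamma receptor, its signaling, and the chemokines it induces, 4 were higher in TLS than in kidney (median 1.11), among them the chemokine Cxcl9 (3.28, SE 0.29, adjusted p = 4.61e-05, limma) and the transcription factor Irf1 (1.82, SE 0.47). The receptor chains Ifngr1 (0.58, SE 0.42) and Ifngr2 (0.91, SE 0.65) and the kinases Jak1 (0.27, SE 0.38) and Jak2 (0.01, SE 0.26) were not called. Between lymph node and TLS, limma, edgeR, and DESeq2 called 0 of the 9 (median 0.31), and 1 had an unadjusted p under 0.05 with limma. Of the 9, 5 were higher in lymph node than in kidney (median 1.36), led by Cxcl9 (3.77), the class II transactivator Ciita (2.77), and Irf1 (2.69). Of 5 inhibitory receptors tested, 4 were higher in TLS than in kidney (median 1.75), led by Btla (2.60), Pdcd1 (2.34), and Lag3 (1.75). In lymph node versus TLS, 1 was higher, Btla (1.31, SE 0.34, adjusted p = 0.0264, limma; median 0.86), whereas edgeR and DESeq2 called 0 of the 5. All 5 were higher in lymph node than in kidney (median 2.83).

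The differences of the cytotoxic genes moved together with those of other lymphocyte markers. Of the 15 T-cell markers tested, 13 were higher in TLS than in kidney (median 2.69), 8 were higher in lymph node than in TLS (median 1.49), and 15 were higher in lymph node than in kidney (median 3.93). In lymph node versus TLS, edgeR called 2 of the 15 (Cd2 and Cd3e) and DESeq2 4 (Cd2, Lck, Trbc1, and Trbc2). Cd2, Cd5, Cd6, Cd28, and Bcl11b had 0 reads in every kidney library. Of the T-cell markers called, Cd3g (3.91), Trbc2 (3.88), and Cd2 (3.45) differed most between TLS and kidney, and Lat (1.97), Cd3e (1.76), and Trbc2 (1.76) between lymph node and TLS. Of 8 B-cell markers, 8 were higher in TLS than in kidney (median 2.87), 1 was higher in lymph node than in TLS (Fcer2a, 1.51, median 1.00), and 8 were higher in lymph node than in kidney (median 4.08). Fcer2a was not called by edgeR or DESeq2 in lymph node versus TLS, where both called 0 of the 8. The macrophage markers had 3, 0, and 5 of 7 genes called higher in these comparisons (medians 1.20, 0.56, and 1.95). Of the 7, edgeR called 1 in kidney versus TLS, and between lymph node and TLS 0 were called by edgeR or DESeq2 and 0 had an unadjusted p under 0.05 with limma. Of the 9 kidney markers, 7 were lower in lymph node than in TLS (median -5.00), 3 were lower in TLS than in kidney (median -1.85), and 9 were lower in lymph node than in kidney (median -5.60). The T-cell and B-cell markers thus moved in the same direction as the members and the kidney markers in the opposite direction. Their part in the differences was not tested.

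Dendritic cell markers were read because some of these cells carry Cd8a. Of 10 markers, 8 were in the table and 1, Itgax, was tested. It had 58 reads over the TLS and 116 over the lymph node libraries of proteinuric mice, and it was higher in TLS than in kidney (2.38, SE 0.50, adjusted p = 0.00667, limma) and in lymph node than in kidney (3.27), and was not called between lymph node and TLS (0.88). Xcr1 and Clec9a, which define the subset, had 2 and 1 reads over the TLS libraries and 4 and 2 over the lymph node libraries of proteinuric mice. Batf3 had 4 reads in TLS and 25 in lymph node, Tlr9 8 and 32, and Siglech 0 and 12. Cadm1 had 4 reads in each of the 2 tissues, and Zbtb46 had 1 in TLS and 0 in lymph node. The summed reads of the 8 markers ranged from 0 to 6 in kidney, from 12 to 44 in TLS, and from 20 to 110 in lymph node. These ranges rose from kidney to TLS to lymph node and overlapped. In mouse H6, the sum was 44 in TLS and 20 in lymph node (37.3 and 29.0 over the size factor). Lymph nodes of antibody-positive mice had 26 to 33 marker reads each, although Cd8a had 105 reads there against 76 in proteinuric mice. The part of these markers in the differences of Cd8a was not tested. Of 6 markers of gamma-delta T cells, 1 (Sox13) was in the table and none was tested. It had 17 reads in kidney, 9 in TLS, and 0 in lymph node. Of 8 mast cell and basophil markers, 5 were in the table and none was tested between tissues.

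**Figure D4:**
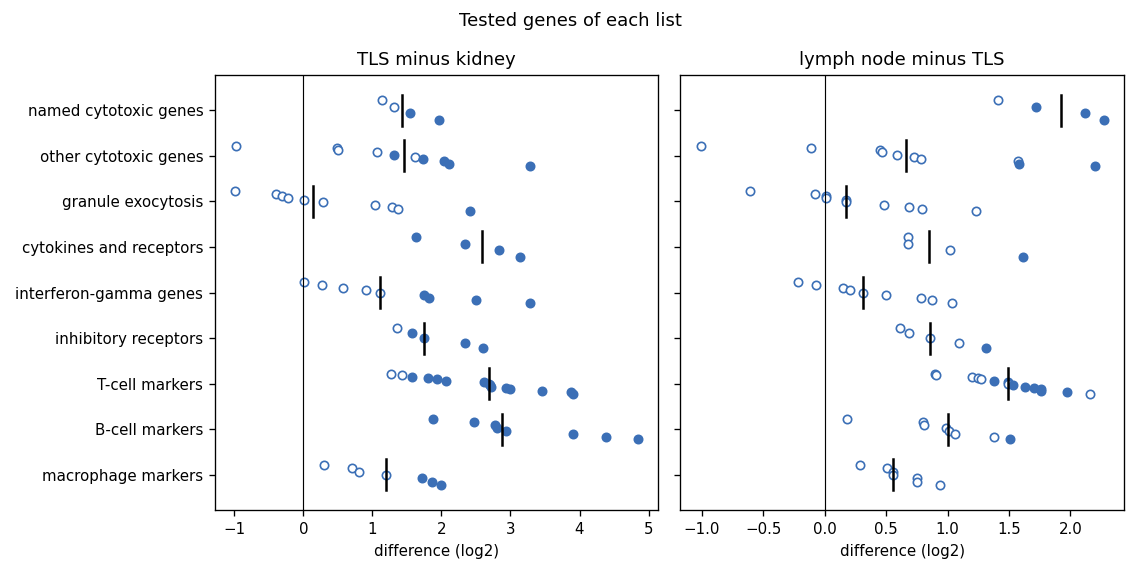
Difference of each tested gene on the log2(value + 1) scale (x axis) for TLS minus kidney (left) and lymph node minus TLS (right), by list (y axis). Each point is a gene, filled where it was called DE with limma, and the black bar is the median of the list. Kidney markers and lists with fewer than 4 tested genes are not drawn. In lymph node minus TLS, the medians of the 9 lists drawn lie between 0.17 for granule exocytosis and 1.92 for the 4 cytotoxic genes that passed the filter.

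Between lymph nodes of antibody-positive and proteinuric mice, none of the 6 genes tested was called with limma, as was none of all 6810 genes (0%). At an unadjusted p under 0.05 there were 2 of the 6 and 215 of all genes. DESeq2 called 13 of all genes and edgeR's quasi-likelihood test 0, and none of the 6 was among them. Cd8b1 had 85, 53, and 42 reads in the antibody-positive mice D10, D11, and L25, above the 28, 33, and 22 reads in the proteinuric mice H117, H20, and H6. The proteinuric mice were lower by 0.98 on the log2 scale (proteinuric minus antibody-positive -0.98, SE 0.32, unadjusted p = 0.0148, adjusted p = 0.998, limma). Prf1 had 11, 14, and 5 reads in the antibody-positive and 5, 6, and 1 in the proteinuric mice, a difference of -1.02 (SE 0.38, unadjusted p = 0.0261, adjusted p = 0.998, limma). The share of all genes without overlap between these groups was not determined, so overlap is a description. The groups did not overlap in Cd8b1. They did not overlap in Prf1 either, although the lowest antibody-positive library (L25, 5.74 reads per size factor) lay just above the highest proteinuric library (H20, 5.68).

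The other genes tested were closer between these groups. Cd8a (-0.39, SE 0.34), Gzma (-0.34, SE 0.31), Klrd1 (-0.12, SE 0.57), and Nkg7 (0.03, SE 0.41) all had an adjusted p of 0.998 with limma. Their reads were 52, 28, and 25 for Cd8a, 32, 27, and 37 for Gzma, 9, 4, and 2 for Klrd1, and 27, 20, and 7 for Nkg7 in the antibody-positive mice D10, D11, and L25. Gzmk had 1 read in the antibody-positive and 8 in the proteinuric mice, of which 5 were in mouse H20. Gzmb had 3 and 7 reads and Eomes 4 and 5 reads. The T-cell markers moved with Cd8b1 and Prf1 in direction, with a median of -0.50 (of all genes -0.08), and 0 of 16 were called with limma and 2 had an unadjusted p under 0.05. The share of Cd8a among Cd8a and Cd4 reads was 37.6% ± 6.63 (SD, n = 3) in the antibody-positive mice, between the means of TLS and lymph node of proteinuric mice. With Cd8b1 in place of Cd8a it was 50.9% ± 5.71 (SD, n = 3), close to the 51.5% in lymph node of proteinuric mice. None of the lists held a gene called by limma, edgeR, or DESeq2, with medians of -0.26 for the further cytotoxic genes (13 tested), 0.11 for granule exocytosis (11), -0.68 for cytokines and receptors (6), -0.14 for the interferon-gamma genes (10), and 0.17 for the inhibitory receptors (6). The medians were 0.87 for dendritic cell (4), -0.14 for B-cell (9), 0.55 for macrophage (8), and -1.73 for mast cell and basophil markers (3). Unadjusted p was under 0.05 (limma) for 2 further cytotoxic genes, 1 cytokine or receptor gene, 1 dendritic cell marker, 1 macrophage marker, 2 mast cell and basophil markers, and 0 genes of the other lists.

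The young lymph node, a single library, had reads of all genes but Gzmb. It had 40 reads of Cd8a, 45 of Cd8b1, 34 of Gzma, 12 of Nkg7, 10 of Prf1, 8 of Klrd1, 3 of Gzmk, and 1 of Eomes. Divided by the size factor, Cd8a (35.8), Gzma (30.4), Prf1 (8.95), and Klrd1 (7.16) lay within the range of the antibody-positive libraries. Cd8b1 (40.3) lay below that range and above the proteinuric libraries, and Nkg7 (10.7) lay below the proteinuric and within the antibody-positive libraries. The Cd8a share was 40.8% (95% Wilson interval 31.6% to 50.7%, 40 of 98 reads).

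Genes with the pattern most like Cd8a and Nkg7 were ranked over the 14 libraries by Pearson's r of log2(value + 1), among 7134 genes whose value averaged 5 or more. The libraries share tissues, mice, and depth, so r is a description. Closest to Cd8a were Sept6 (0.985), Lyz1 (0.984), Tespa1 (0.982), Fam65b (0.981), and Galnt6 (0.980), beside r = 0.986 for Cd8b1. Closest to Nkg7 were Gimap5 (0.974), Edem2 (0.974), Lat (0.971), Cd247 (0.968), and BC017643 (0.965). Among the cytotoxic genes themselves, r with Cd8a was 0.964 for Gzma, 0.921 for Nkg7, 0.889 for Prf1, and 0.844 for Klrd1. It was lower for Eomes (0.653), Gzmb (0.514), and Gzmk (0.387), which had the fewest reads.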

How the data were processed

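Reads of poly(A) libraries (Ion Torrent) were mapped to GRCm38 and counted in CLC Genomics Workbench by the authors, whose deposited table gives a signal for each gene. Multiplied by the library's size factor, 100% of these values were whole (tolerance 1e-06) and equal to the read count with 1 added, so that reads could be recovered. A fit of the 10 libraries of proteinuric mice and another of 6 lymph node libraries used limma 3.58.1 (trend and robust moderation, R 4.3.3) on log2(value + 1), with Benjamini-Hochberg adjustment over all genes. Groups came from the labels, and all 4 kidney libraries were kept. All genes named as cytotoxic were described, and in each other list up to 3 called genes with the largest difference were named, except that some results are not reported here. The genes and lists were chosen with earlier results of these data known. The comparisons were repeated with edgeR 4.0.16 and DESeq2 1.42.0 on the recovered reads, TMM scaling, other filters (means of 2 and 10, none), pseudocounts of 0.5 and 5, a log2 difference of 1 or more, a replicate block for the mouse, fits of the compared tissues alone, the lymph nodes merged into one group, and each library left out. The quasi-likelihood test (TMM) called 832 genes in kidney versus TLS, 784 in lymph node versus TLS, and 3184 in kidney versus lymph node, where limma called 1084, 780, and 3230. Leaving out 3 libraries rich in ribosomal RNA, and each library in the ratios of reads, was chosen after seeing the data. The share of Cd8a was planned as a description, and the permutation test of the shares was added to it. Libraries held between 343825 and 443379 reads. The mouse numbers link tissues of one animal, per the labels. The median correlation of deviations from the tissue means was 0.114 in 8 pairs of one mouse and 0.035 in 25 pairs of different mice. Exon lengths came from GENCODE M21. Tests were tried on simulated data. Whole kidneys of other groups were not analysed here.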

Additional observations from a re-analysis of the deposited data

How the results depend on the processing

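Of the 4 cytotoxic genes tested, 2 were called in kidney versus TLS, 3 in lymph node versus TLS, and 4 in lymph node versus kidney. Of all genes tested, 8.62%, 1.69%, and 20.8% were called in the same direction. The count in kidney versus TLS was 1 of 3 tested with a filter at a mean of 10, where Cd8a was lost and 11.3% of all genes were called higher in TLS. It was 4 with TMM library sizes in limma (9.94% of all genes). When each library was left out, it was 1 to 3 (5.26% to 9.73% of all genes), and count and share were lowest without TLS of mouse H6. The count in lymph node versus TLS was 1 without the 3 libraries rich in ribosomal RNA, where 0.339% of all genes were called higher in lymph node. It ranged from 2 to 4 when each library was left out (0.433% to 3.35% of all genes). TMM scaling moved the median of all genes from -0.01 to 0.12 in kidney versus TLS and from 0.04 to -0.15 in lymph node versus TLS, where 0.582% of genes were then called higher in lymph node, and the genes named kept their direction in the 3 tissue comparisons. With the mouse as a replicate block, 2, 3, and 4 of the genes were called, with no call changed, while 0.691% of all genes were called higher in lymph node than in TLS. In proteinuric versus antibody-positive lymph node, no cytotoxic gene was called under any alternative. Klrd1 (-0.12) was 0.11 with DESeq2 and between -0.67 and 0.22 when each library was left out, and Nkg7 (0.03) was between -0.38 and 0.32. The cause was not tested. With at most 3 reads in most TLS and kidney libraries, Gzmb, Prf1, Klrd1, and Eomes could not be compared between these tissues at this depth.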
